A study of Mus musculus with 6 samples.

Results

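The beta-crystallins are the structural lens proteins encoded by Cryba1, Cryba2, Cryba4, Crybb1, Crybb2 and Crybb3, and all 6 genes were taken by name from the array's RefSeq symbols, of 20659 genes named on the array. They were read by 8 probes on 17 spots, and all 6 were among the 12785 genes that passed the filter on dim probes. Lens RNA from mice aged 3 months was measured on 6 single-colour arrays, 3 from βB2-crystallin W151C knock-in mice (replicates 1, 2 and 4) and 3 from wild type mice (replicates 1, 2 and 3). The knock-in mice carried a CRISPR/Cas9 edit in codon 151 of Crybb2 that replaces tryptophan with cysteine (W151C), and the wild type mice carried no edit. The labels did not give zygosity, strain, founder line or how many animals went into an array. The p-values below therefore rest on array-to-array spread alone, part of which may be technical.

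Beta-crystallins, with the alpha- and gamma-crystallins, fill the cytoplasm of lens fibre cells at high concentration and give the lens its refractive power. The acidic members (the Cryba genes) and the basic members (the Crybb genes) assemble into dimers and larger oligomers, and Crybb2 encodes the main basic subunit of the mature lens. Changes in several of these genes cause inherited cataract, and members of the family are also transcribed in the retina. In whole lenses, fewer cells of a type and less RNA per cell cannot be told apart.

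Spot signals set the scale of what follows. The 75th percentile of the processed signal (the scanner's background-subtracted spot intensity) was 120 to 201 on 5 arrays and 698 on wild type array 3. The share of spots well above background ran from 45.5% to 58.4%, and 0 spots were flagged as saturated. The file headers give the 3 knock-in arrays one scan identifier, wild type arrays 1 and 2 another, and wild type array 3 its own, from another day. Scan and genotype therefore cannot be told apart, and results are also given within the shared day (3 knock-in arrays and the first 2 wild type arrays), where each genotype still has its own scan. Lens fibre cell markers were well above background throughout, with 11 or 12 of the 12 on the array detected, and their summed scaled level was 686 to 707 on the knock-in arrays and 1014 to 2586 on the wild type arrays. Retina markers moved with genotype and with 1 library: the summed scaled level of 12 retina genes was 112 on knock-in array 4, against 8.77 and 10.8 for the other knock-in arrays and 3.85 to 4.23 for the wild type. The cone opsin Opn1sw was above background on 0 arrays, while the photoreceptor gene Prph2 had scaled log2 values of -0.14, 0.88 and 5.51 on the knock-in arrays and -2.28, -2.59 and -2.39 on the wild type arrays. The summed level of 8 fibroblast and vessel markers was 8.71 to 18.1 in the knock-in and 3.91 to 6.07 in the wild type, with Cdh5 and Lum above background on 0 arrays. It was carried by Col1a1 and Col1a2, the 2 of 5 tested that were called higher, and the median difference of the 5 was -0.07. The part of other cell types in the differences below was not tested. Values without knock-in array 4 are given but do not test it, since the other knock-in arrays also had retina and fibroblast sums above the wild type.

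Crybb2, the edited gene, was measured first. Its brighter probe gave processed signals of 96436, 96894 and 83074 in knock-in replicates 1, 2 and 4, and of 139566, 140598 and 174226 in wild type replicates 1, 2 and 3. Every knock-in array lay below every wild type array before scaling. A probe of this kind does not read a single-base edit, so the signal says nothing about which allele was transcribed and does not check the genotype labels. After scaling, which subtracts the array's own 75th percentile from each log2 signal, the values were 9.17, 8.91 and 8.79 in the knock-in and 9.94, 10.19 and 7.96 in the wild type. Wild type array 3, the highest before scaling, became the lowest of all 6, so the groups overlapped. The scaled mean was 8.96 ± 0.20 in the knock-in and 9.37 ± 1.22 in the wild type (SD, n = 3 each). The difference of -0.41 (SE 0.55) did not pass limma's test (adjusted p = 0.625), and its sign turned to 0.15 after normexp background correction with quantile normalization. It was 0.01 without wild type array 2. Within the shared scan day it was -1.11 (SE 0.17, adjusted p = 0.00435, limma), 2.16-fold lower in the knock-in. Before scaling, the difference over the same arrays was -0.61, or 1.52-fold.

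The second Crybb2 probe also separated the genotypes before scaling and not after it. Its signals were 58225, 69709 and 55409 on the knock-in arrays and 79321, 76360 and 130268 on the wild type arrays. Its scaled difference was -0.30 (SE 0.45, adjusted p = 0.659 over 21076 probes, limma) on 6 arrays. Within the shared day the probe fell by 0.86 log2 units (SE 0.15, adjusted p = 0.00647).

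**Figure D1:**
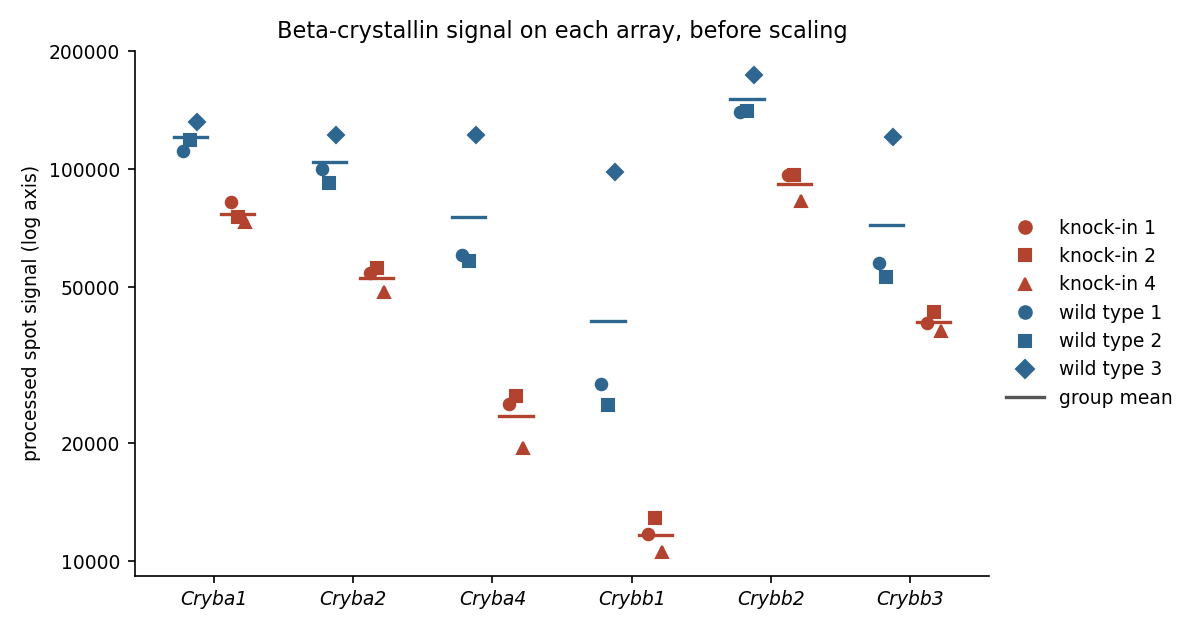
Processed spot signal of the 6 beta-crystallin genes on each array before scaling, on a log axis, with knock-in arrays in red, wild type arrays in blue and a line at each group's mean of log values. For every gene all 3 knock-in arrays lie below all 3 wild type arrays, and wild type array 3 is the brightest.

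Before scaling, all 6 members had every knock-in array below every wild type array, as did 16.0% of all genes. On the unscaled values limma called 0 of the 6 (adjusted p from 0.432 to 0.9999), with 2 of them at an unadjusted p below 0.05, where 1.14% of genes were called lower. That fit gave all 6 the same SE, 0.83, from a variance pooled over genes. Its p-values therefore only rank the differences and do not measure each member's own spread. For Cryba1 the unscaled SDs were 0.08 and 0.13. Unscaled signals carry the difference in overall brightness between arrays, which without scaling put the median of all genes at -0.34 against -0.04 with it. After scaling, 2 of the 6 members were called lower in the knock-in at an adjusted p below 0.05 and 0 were called higher, against a background of 25.9% of genes called, 12.6% lower and 13.3% higher. The same 2 members were the ones whose groups did not overlap after scaling, as in 23.1% of genes with every knock-in array lower. The split of all calls was 48.8% lower, and 59.2% lower when arrays were scaled to their median. Within the shared day, 6 of 6 members were called lower, where 24.4% of all genes were called lower and 19.0% higher. The median difference of the members was -0.59 on 6 arrays and -1.24 within the shared day, beside medians of -0.04 and -0.03 over all genes. Scaling enlarged the differences within the shared day. The 75th percentile was 167 to 201 on the knock-in arrays and 120 to 142 on wild type arrays 1 and 2. Before scaling, the members' median there was -0.74 (1.67-fold lower, against 2.37-fold scaled), from -0.44 for Crybb3 to -1.34 for Cryba4.

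Crybb1 encodes a basic subunit with long terminal extensions that takes part in forming the larger oligomers. Its brighter probe gave signals of 11706, 12884 and 10566 on the knock-in arrays and 28305, 24964 and 98196 on the wild type arrays. Its scaled log2 values were 6.13, 6.003 and 5.81 in the knock-in (5.98 ± 0.16, SD, n = 3) and 7.64, 7.70 and 7.14 in the wild type (7.49 ± 0.31, SD, n = 3). The groups were apart both before and after scaling. The wild type spread was the smallest of the 6 members after scaling, but the largest of them before it (SD 1.09 log2 units). Crybb1 fell by 1.51 log2 units (SE 0.20, adjusted p = 0.00298, limma), 2.85-fold. Within the shared day it fell by 1.69 (SE 0.15, adjusted p = 0.000809). Its other probe, at 10001, 11386 and 9086 against 27453, 23533 and 90209, fell by 1.63 (SE 0.22, adjusted p = 0.00339 over probes, where 12.8% were called lower). The call was also made with scan as a random block (-1.45, adjusted p = 0.0435) and with any 1 array left out (adjusted p from 0.000809 to 0.0194). Here and below, the random block cannot separate scan from genotype, since no scan holds both genotypes. A call kept or lost under it therefore does not tell how much of a difference is due to scan. Without knock-in array 4, the array high in retina transcripts, the difference was -1.43 (adjusted p = 0.0143). Crybb1 was the one member called in every alternative run except the unscaled values.

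Cryba4, an acidic subunit, was the other member called. Its signals were 25120, 26317 and 19456 on the knock-in arrays and 60340, 58433 and 121949 on the wild type arrays. Scaled, it stood at 7.23, 7.03 and 6.69 in the knock-in (6.98 ± 0.27, SD, n = 3) and at 8.73, 8.93 and 7.45 in the wild type (8.37 ± 0.80, SD, n = 3). The groups did not overlap, but wild type array 3 lay close to knock-in array 1. Cryba4 fell by 1.38 log2 units (SE 0.39, adjusted p = 0.0411, limma), 2.61-fold, and by 1.84 within the shared day (SE 0.19, adjusted p = 0.00132). The call rested on all arrays but wild type array 3: it was lost with scan as a random block (-1.24, adjusted p = 0.242) and without knock-in array 1 (adjusted p = 0.0876), 2 (0.113) or 4 (0.119) or wild type array 1 (0.123) or 2 (0.111).

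**Figure D2:**
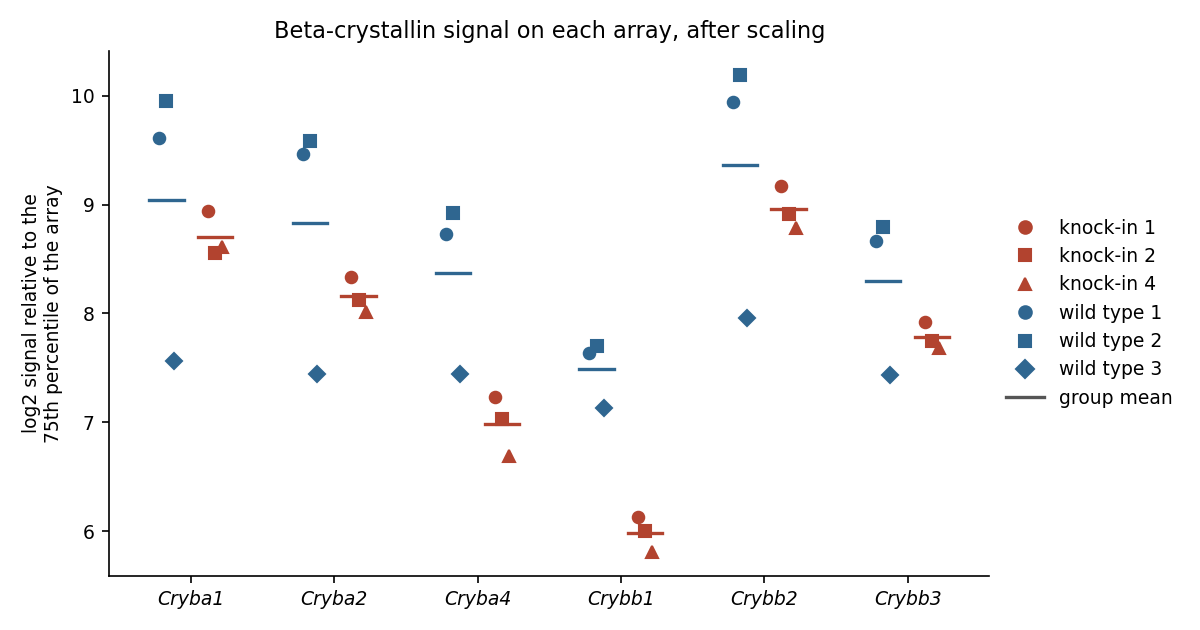
Scaled log2 signal of the 6 genes on each array, relative to the array's 75th percentile, with knock-in arrays in red, wild type arrays in blue and a line at each group's mean. Crybb1 and Cryba4 separate by genotype (knock-in 5.81 to 6.13 and 6.69 to 7.23), while wild type array 3 falls below the knock-in arrays for the other 4 genes.

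Crybb3 encodes the third basic subunit. Its signals were 40562, 43303 and 38745 on the knock-in arrays and 57759, 53174 and 120707 on the wild type arrays. Its scaled values of 7.92, 7.75 and 7.69 in the knock-in overlapped those of 8.67, 8.79 and 7.43 in the wild type, through wild type array 3 alone. The difference was -0.51 (SE 0.36, adjusted p = 0.330, limma). Over the shared day alone Crybb3 fell by 0.94 (SE 0.14, adjusted p = 0.00379), the smallest of the 6 differences there.

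Cryba1 encodes the βA3 and βA1 proteins from a single transcript with alternative translation starts. It is printed 10 times on the array, and its mean signals over the spots kept were 82209, 75583 and 73405 on the knock-in arrays and 111380, 118642 and 132210 on the wild type arrays. The spots varied by 9.7% to 13.3% (coefficient of variation) within an array, which is the technical spread of the spots. Scaled, the values were 8.94, 8.56 and 8.61 in the knock-in and 9.61, 9.95 and 7.56 in the wild type. The difference of -0.34 (SE 0.58, adjusted p = 0.704, limma) was within the spread of the wild type arrays, and its sign turned with quantile normalization (0.21), with normexp and quantile normalization (0.22) and without wild type array 2 (0.11). Cryba1 on the shared day fell by 1.08 (SE 0.18, adjusted p = 0.00611).

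Cryba2, an acidic subunit, gave signals of 54176, 55972 and 48634 on the knock-in arrays and 100353, 92065 and 121975 on the wild type arrays. After scaling, 8.34, 8.12 and 8.01 in the knock-in stood against 9.46, 9.58 and 7.45 in the wild type, and wild type array 3 was again the lowest. Its difference was -0.67 (SE 0.54, adjusted p = 0.398, limma) on 6 arrays. On the shared day alone it fell by 1.37 (SE 0.15, adjusted p = 0.00153).

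**Figure D3:**
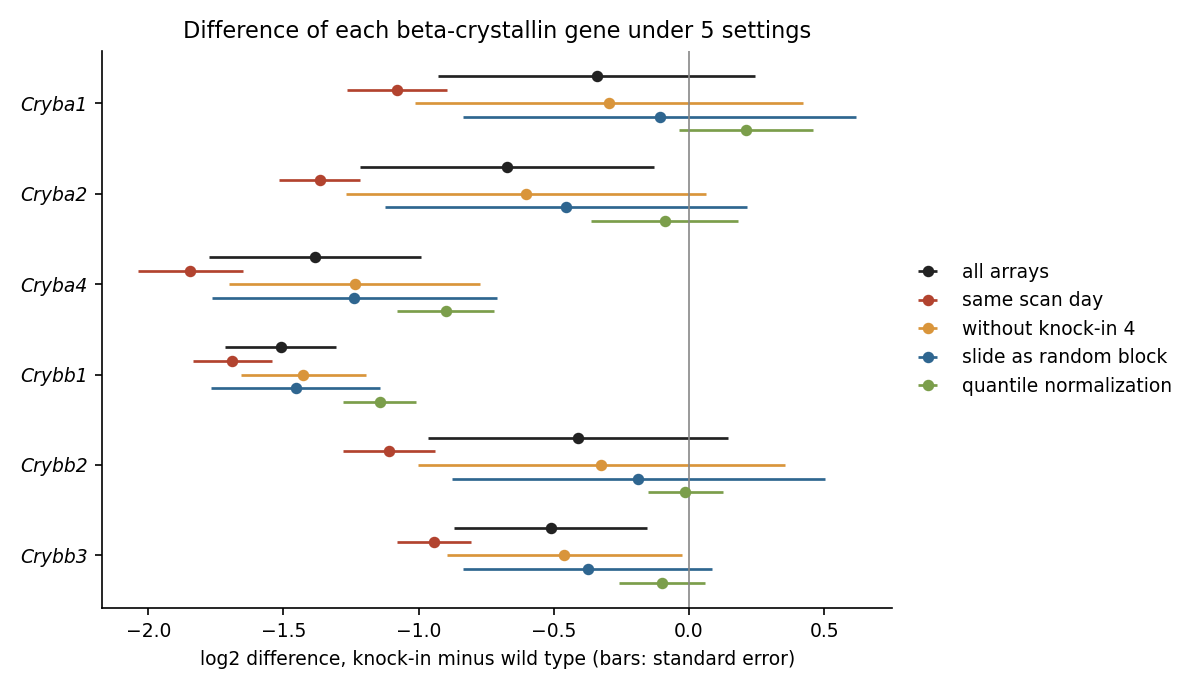
Log2 difference (knock-in minus wild type) of each gene, with its standard error, on all 6 arrays, on the arrays of the shared scan day, without knock-in array 4, with scan (named slide in the legend) as a random block and after quantile normalization. Crybb1 lies between -1.69 and -1.14 in the 5 settings, all genes lie between -0.94 and -1.84 on the shared day, and Cryba1 lies above 0 (0.21) after quantile normalization.

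The members differed in how far wild type array 3 exceeded wild type arrays 1 and 2 before scaling. Crybb1 was 3.69-fold brighter there, Crybb3 2.18-fold and Cryba4 2.05-fold. Cryba2, Crybb2 and Cryba1 were only 1.27-, 1.24- and 1.15-fold brighter. The ratio was smaller for the brightest genes across the array: its median was 4.31 for 4366 other genes with mean signals below 100, 6.10 for 6065 genes at 100 to 1000, 5.61 for 2071 genes at 1000 to 10000, 4.56 for 177 genes at 10000 to 30000 (the class of Crybb1) and 2.91 for 100 genes at 30000 or more (the class of the other 5 members, with 8 other crystallins). Within the shared day, the 2 brightest of these classes had median differences of -0.38 and -0.62, with 76.3% and 90% of their genes below 0. The part of brightness in the members' differences was not tested.

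**Figure D4:**
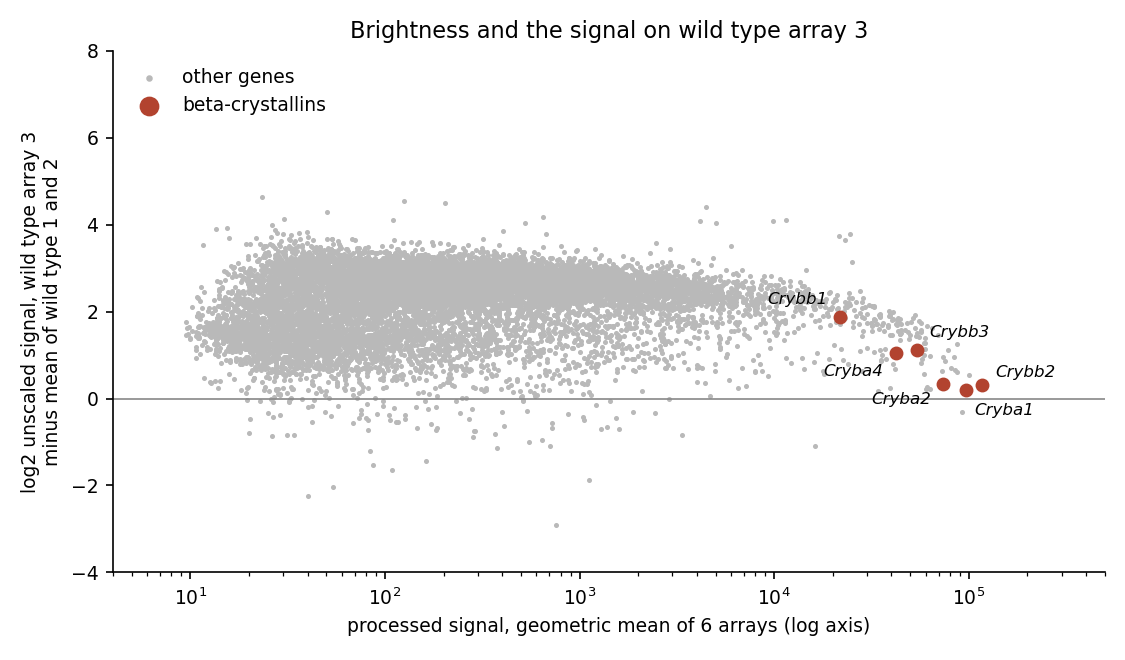
Log2 unscaled signal of wild type array 3 minus the mean of wild type arrays 1 and 2 (vertical axis) against the geometric mean signal over 6 arrays (horizontal log axis) for 12782 genes in grey and the 6 beta-crystallins in red. Members lie at the bright end, where the gap narrows, from 1.89 for Crybb1 to 0.20 for Cryba1.

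A ratio of members within an array does not depend on scaling, and was compared between arrays only, since different probes bind with different strength. The Crybb1 signal was 12.1%, 13.3% and 12.7% of the Crybb2 signal on the knock-in arrays and 20.3%, 17.8% and 56.4% on the wild type arrays. The Cryba4 signal was 26.1%, 27.2% and 23.4% of it in the knock-in and 43.2%, 41.6% and 70.0% in the wild type. For Cryba2 the ratios were 56.2%, 57.8% and 58.5% against 71.9%, 65.5% and 70.0%. In these 3 genes every knock-in array was below every wild type array, a pattern found in 6.10% of all genes set against Crybb2. The Cryba1 ratio was 85.3%, 78.0% and 88.4% in the knock-in and 79.8%, 84.4% and 75.9% in the wild type, and that of Crybb3 was 42.1%, 44.7% and 46.6% against 41.4%, 37.8% and 69.3%. Both overlapped between genotypes.

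On the log2 scale the ratio to Crybb2 differed by -1.10 for Crybb1, -0.97 for Cryba4, -0.26 for Cryba2, -0.10 for Crybb3 and 0.07 for Cryba1. Over these 5 ratios the exact permutation test (two-sided) gave p = 0.1 for Crybb1, Cryba4 and Cryba2, the smallest that 3 against 3 arrays allow, 0.4 for Cryba1 and 1 for Crybb3, or 0.167, 0.5 and 1 after Benjamini-Hochberg adjustment. The limma fit of all genes relative to Crybb2 called 0 of the 5 (adjusted p from 0.820 to 0.994, and 0 of them at an unadjusted p below 0.05) and 2.88% of all genes. That fit gave all 5 nearly the same SE, 0.75, from a variance pooled over genes. The wild type SDs of the log2 ratios ran from 0.07 for Cryba2 to 0.91 for Crybb1. The p-values of that fit therefore do not measure each ratio's own spread, and the 0 calls do not show that the ratios were alike. Within the shared day that fit called Cryba4 (-0.73, SE 0.22, adjusted p = 0.0136) and Crybb1 (-0.58, SE 0.22, adjusted p = 0.0378) lower. There 74.7% of genes were called, 4.62% lower and 70.1% higher, and all 5 ratios again had nearly the same SE, 0.22. Cryba2 (-0.26), Crybb3 (0.17) and Cryba1 (0.03) did not pass there, at adjusted p of 0.307, 0.503 and 0.910.

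**Figure D5:**
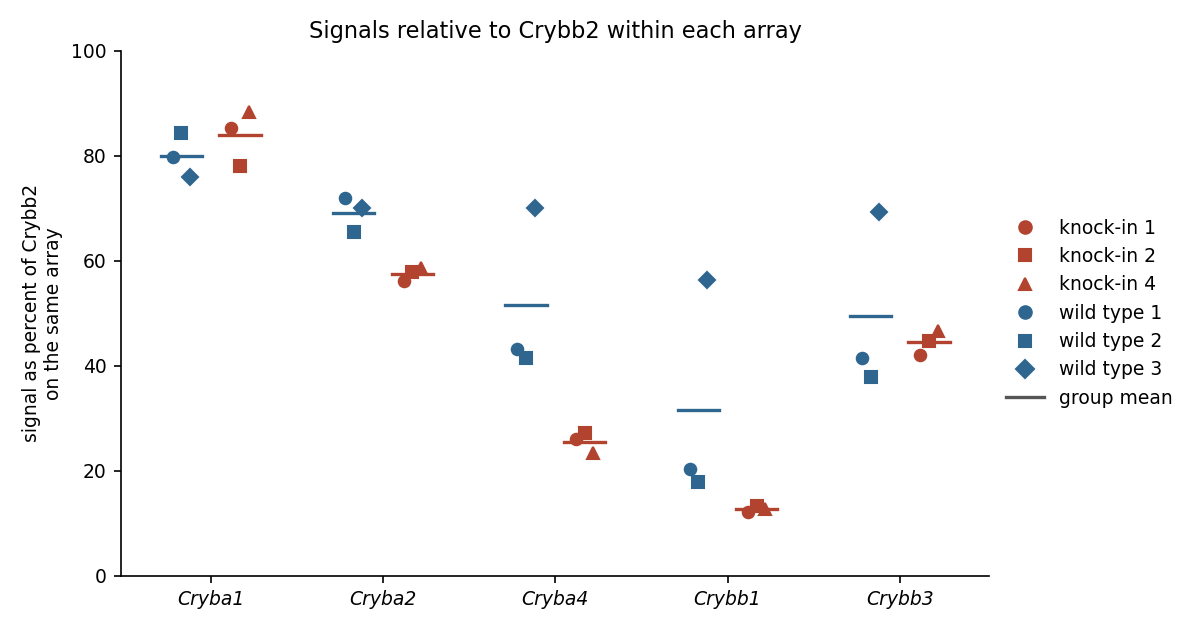
Signal of 5 members as a percent of the Crybb2 signal on the same array, with knock-in arrays in red, wild type arrays in blue and a line at each group's mean. Knock-in values lie below wild type values for Cryba2, Cryba4 and Crybb1 and overlap with them for Cryba1 and Crybb3, and wild type array 3 is the highest for Cryba4, Crybb1 and Crybb3.

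The balance of acidic and basic members overlapped between the genotypes through wild type array 3 alone. The mean log2 signal of the 3 acidic genes minus that of the 3 basic genes was 0.43, 0.35 and 0.34 on the knock-in arrays and 0.52, 0.59 and -0.02 on the wild type arrays. The group means of 0.37 ± 0.05 and 0.36 ± 0.34 (SD, n = 3 each) differed by less than the spread between wild type arrays. Within the shared day the knock-in values were all below both wild type values, with a difference of -0.18 that was not tested. The strongest and weakest members, Crybb2 and Crybb1, were 8.24-, 7.52- and 7.86-fold apart in the knock-in and 4.93-, 5.63- and 1.77-fold apart in the wild type.

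Of the 6 genes, 4 lie on chromosome 5 in RefSeq's annotation, where Cryba4 and Crybb1 overlap and Crybb2 and Crybb3 are direct neighbours, while Cryba1 is on chromosome 11 and Cryba2 on chromosome 1. The neighbours Cryba4 and Crybb1 were the 2 members called, and their log2 signals differed by 1.10, 1.03 and 0.88 on the knock-in arrays and by 1.09, 1.23 and 0.31 on the wild type arrays. The neighbours Crybb2 and Crybb3 differed by 1.25, 1.16 and 1.10 and by 1.27, 1.40 and 0.53. In both pairs wild type array 3 had the smallest gap. Among the other 5 arrays the genotypes overlapped for Cryba4 and Crybb1, while for Crybb2 and Crybb3 the knock-in gaps were all below those of wild type arrays 1 and 2, a difference that was not tested.

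The 250 bases before 1 RefSeq start of each of these genes (assembly GRCm38.p6) were searched for TGCTGA and its other strand, TCAGCA, the core of the element bound by Maf factors, which activate crystallin genes in lens fibre cells. The motif was chosen with these sequences in view, and the starts need not be those used in the lens. It stood in 5 of the 6 windows and in 16.1% of 32851 windows of that length over 27025 genes. The windows of the 2 called genes and of the edited gene are shown because the results turn on these genes: Cryba4 (chr5:112252519-112252768, minus strand) holds 3 matches, at 182, 135 and 77 bases before the start, Crybb1 (chr5:112255570-112255819, plus strand) holds 1 at 84 bases, and Crybb2 (chr5:113070118-113070367, minus strand) holds 0. Capitals mark the matches, and the sequences read 5′ to 3′ along the gene:
Cryba4: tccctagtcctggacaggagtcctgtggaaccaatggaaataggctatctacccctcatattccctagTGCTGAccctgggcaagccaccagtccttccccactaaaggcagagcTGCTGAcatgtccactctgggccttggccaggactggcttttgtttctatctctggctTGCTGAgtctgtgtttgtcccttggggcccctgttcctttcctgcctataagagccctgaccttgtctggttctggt
Crybb1: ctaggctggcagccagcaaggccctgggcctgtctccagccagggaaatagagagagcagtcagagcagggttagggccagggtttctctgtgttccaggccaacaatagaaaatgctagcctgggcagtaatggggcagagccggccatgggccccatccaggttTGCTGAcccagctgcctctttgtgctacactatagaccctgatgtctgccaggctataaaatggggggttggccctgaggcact
Crybb2: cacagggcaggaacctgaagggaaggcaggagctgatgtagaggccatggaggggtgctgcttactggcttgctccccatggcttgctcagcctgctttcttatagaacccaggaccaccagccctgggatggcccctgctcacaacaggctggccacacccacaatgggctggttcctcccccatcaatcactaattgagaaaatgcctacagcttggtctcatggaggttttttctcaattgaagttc
The other windows hold 1 match each, at 57 bases before the start in Cryba1, 67 in Crybb3 and 149 in Cryba2. A match is a description of the letters, and no binding was measured.

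Transcription factors and cofactors known to act on crystallin genes were measured for 22 of 22 on the list, of which 5 were lower, 0 higher and 17 not called, with a median difference of -0.34, beside 12.6% of all genes lower and 13.3% higher. On the shared day alone 6 were lower and 1 higher, beside 24.4% and 19.0% of all genes. Foxe3, a factor of the lens epithelium, had scaled log2 values of -3.26, -2.83 and -3.28 in the knock-in and -2.40, -1.92 and -1.72 in the wild type, and fell by 1.11 (SE 0.23, adjusted p = 0.0148, limma). Its mean level was the lowest of the list (-2.57). It was above background on only 5 arrays, so the filter kept it through 1 group alone. When probes had to be above background on all arrays, Foxe3 was not tested. Hsf4, a heat shock factor needed for fibre cell differentiation, fell by 0.81 (SE 0.19, adjusted p = 0.0231), and Sox1, an activator of gamma-crystallin genes, fell by 0.71 (SE 0.18, adjusted p = 0.0279). The remaining 2 that fell, named after their values were seen, were the retinoid X receptor gene Rxra (-1.12, adjusted p = 0.0476) and Pitx3, a homeodomain factor of lens development (-0.59, adjusted p = 0.0485). With scan as a random block, Foxe3, Hsf4 and Sox1 were no longer called (adjusted p = 0.158, 0.244 and 0.275). Normexp with the 75th percentile moved Foxe3 to -0.33 (adjusted p = 0.287) and Sox1 to -0.39 (adjusted p = 0.297). The call of Foxe3 was lost without knock-in array 1 (adjusted p = 0.0537) or 4 (0.0518) or wild type array 2 (0.0528), and that of Hsf4 without knock-in array 2 (0.102) or 4 (0.0677) or wild type array 1 (0.0845) or 2 (0.0679). Sox1 was not called without knock-in array 2 (adjusted p = 0.0951) or wild type array 1 (0.106) or 2 (0.0953). Maf, also named after its values were seen, stood at 5.19, 5.33 and 5.54 in the knock-in and 5.48, 5.30 and 5.20 in the wild type, a difference of 0.02 (SE 0.17, adjusted p = 0.940).

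The alpha- and gamma-crystallins, the other lens crystallins, had 10 of 10 measured, 1 lower and 0 higher, with a median of -1.47, beside 12.6% of all genes lower. The shared day alone had 9 lower, with a median of -2.21, beside 24.4% of all genes. Crygb fell by 2.29 (SE 0.43, adjusted p = 0.0103, limma), and was not called with scan as a random block (-2.12, adjusted p = 0.0748) or without scaling (-2.59, adjusted p = 0.0698). Cryge (-1.91, SE 0.58, adjusted p = 0.0517) and Cryga (-1.83, SE 0.56, adjusted p = 0.0528) missed the threshold. The list was not uniform, as genes named after their values were seen show. Crygn went the other way (0.69, SE 0.24, adjusted p = 0.0803, limma), and the alpha-crystallins Cryaa (-0.17) and Cryab (-0.26) differed least. The rest lay between -2.25 (Crygf) and -0.60 (Crygs). Of the beta- and gamma-crystallin relatives that are not counted as lens crystallins, 2 of 3 were measured, both above background on all arrays. Crybg1 rose by 1.20 (SE 0.33, adjusted p = 0.0379, limma), and Crybg3 was at -0.28 (SE 0.22, adjusted p = 0.385). The Crybg1 call was lost in 8 of 21 alternatives, among them scan as a random block (adjusted p = 0.275) and leaving out knock-in array 2 (0.129) or 4 (0.112) or wild type array 1 (0.119) or 2 (0.110).

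The genes whose scaled values most resembled those of Crybb2 were found by the root mean square difference of centred log2 values over the 6 arrays. They were Cryba1 (0.077, Pearson r = 0.996), Tlr9 (0.089, r = 0.998), Def6 (0.095, r = 0.992), Tle1 (0.102, r = 0.994) and Klf17 (0.105, r = 0.994). The likeness is a description over 6 arrays that share the low scaled values of wild type array 3, and 367 of 12781 other genes had r of at least 0.95 with Crybb2.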

How the data were processed

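Lens RNA was read on 6 Agilent arrays with 1 dye, Cy3, per the labels. The deposited files give spot intensities: the processed signal, background-subtracted with the scanner's software (Feature Extraction, of which the file headers give version 11.0.1.1 and the submitters' processing notes 9.1), and the median spot and background signals. The log2 processed signal minus the array's 75th percentile over 43020 non-control spots was used. Outlier spots were left out, spots of a probe averaged, and probes kept if at least 50% of their spots were well above background on all arrays of a group (21076 of 39429). Of all probes, 27234 were named through RefSeq accessions (GRCm38.p6; the array design cites mm9), and the brightest kept probe stood for each of 12785 genes. Differences were fitted over all genes with limma 3.58.1 in R 4.3.3, with Benjamini-Hochberg adjustment, and the procedure was tested on simulated data. The simulated noise was independent between genes and arrays, without scan or brightness effects, so that test does not cover those effects. The number of arrays limits the precision.

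Members, lists and tests were chosen with earlier results of these data known. Named genes were the 6 members, up to 3 genes of the smallest p per other list, and the 5 most like Crybb2. Retina, pigment cell, cornea, leukocyte, fibroblast and lens marker lists were summed per array: pigment cell markers came to 1.13 to 1.66 in the knock-in and 0.553 to 1.34 in the wild type, cornea markers to 71.9 to 81.4 and 59.1 to 88.0, leukocyte markers to 9.70 to 18.7 and 12.8 to 41.1, and lens epithelium markers to 98.4 to 119 and 102 to 179. The leukocyte sum came mostly from Itgam, at 2.60 to 3.33 in the knock-in and 3.51 to 5.21 in the wild type (scaled log2). C1qc, Tyrobp and Aif1 were instead higher on every knock-in array than on every wild type array. They were above background on only 4, 3 and 2 arrays. The other leukocyte markers overlapped, and of the 8 tested 2 were called higher and 1 lower. Alternatives covered scaling, background correction, filters, probes, array weights, blocks and leaving out each array. Replicates of a group shared 0 identical spots.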

Additional observations from a re-analysis of the deposited data

How the results depend on the processing

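The fall of Crybb1 kept its direction in all 22 alternatives and its call in 21 of them. Of the other members, Cryba2, Cryba4 and Crybb3 were below 0 in all 21 alternatives of each, Crybb2 in 20 of 22 and Cryba1 in 18 of 21. Cryba4 was called in 13 alternatives, and Cryba1, Cryba2, Crybb2 and Crybb3 in 6 each. Those 6 all left out, blocked off or down-weighted wild type array 3. The alternatives are not separate checks: the shared day alone and leaving out wild type array 3 are the same fit. The cause of each change below was not tested. Without scaling, 292 genes and 0 members were called, and Cryba4 (-1.69) and Crybb1 (-1.81) lost their calls. All members had the same pooled SE of 0.83 in that fit. Cryba4 was not called without the filter on dim probes (-1.38, leaving 1 member and 2002 genes called) or with scan as a random block (-1.24, 1 member, 620 genes). Normexp with the 75th percentile called 1432 genes. Array weights, which gave wild type array 3 a weight of 0.108, called 6 members and 8749 genes, with -1.10 for Cryba1, -1.35 for Cryba2, -1.08 for Crybb2 and -0.93 for Crybb3. The scan day as a block (5566 genes) and the arrays of the shared day alone (5661 genes) each called 6 members, with -1.08, -1.37, -1.11 and -0.94 for these 4 genes. Cryba1 turned to 0.21 with quantile normalization and, with normexp before it, to 0.22, where Crybb2 turned to 0.15. Tle1 turned to 0.36 when the gene's probes were averaged.

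Leaving out 1 array gave 1538 to 5661 genes and 1 to 6 members called. The differences ranged from -1.08 to 0.11 for Cryba1, from -1.37 to -0.30 for Cryba2, from -1.84 to -1.10 for Cryba4, from -1.69 to -1.41 for Crybb1, from -1.11 to 0.0056 for Crybb2 and from -0.94 to -0.26 for Crybb3. The 2 positive values, of Cryba1 and Crybb2, came without wild type array 2, and the lowest values of all 6 without wild type array 3. Relative to Crybb2, the ranges were 0.029 to 0.118 for Cryba1, -0.30 to -0.24 for Cryba2, -1.11 to -0.73 for Cryba4, -1.41 to -0.58 for Crybb1 and -0.27 to 0.17 for Crybb3, with 0.17 for Crybb3 without wild type array 3.

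Relative to Crybb2, Cryba4 was called with quantile normalization (-0.89), normexp and quantile (-0.99), array weights (-0.69) and the day as a block or alone (-0.73), and Crybb1 in the same settings (-1.13, -1.45, -0.59 and -0.58). Cryba1 turned to -0.23 with normexp and the 75th percentile, to -0.042 with the second Crybb2 probe and to -0.016 with array weights. Crybb3 turned to 0.14 with array weights and to 0.17 with the day as a block or alone.

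Replicate numbers 1 and 2 are shared by the genotypes, but same-numbered arrays did not deviate together (correlations of 0.168 and -0.216), so the numbers are not shown to pair them. The replicate block on these 4 arrays called 6 members and 5481 genes, and the same arrays without the block, an alternative added after seeing the data, called 6 and 6072. Both gave -1.03 for Cryba1, -1.29 for Cryba2, -1.02 for Crybb2 and -0.89 for Crybb3, and, relative to Crybb2, -0.0091 for Cryba1 and 0.13 for Crybb3. Without the block Cryba4 was called relative to Crybb2 (-0.67). Scaling on spike-in probes was not run, since 0 of 10 were above background on all arrays, and normexp was run on median instead of mean signals. Crybb2, Cryba1 and Cryba2 lay in the brightest class of signals, where no spot was flagged as saturated.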
